A study of Saccharomyces cerevisiae with 8 samples.

Results

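Baker's yeast, Saccharomyces cerevisiae, that had been frozen for 7 days was compared with the same yeast frozen for 3 days. The comparison used 4 arrays of the 8 in the series, chosen by their titles: 7 day replicates 1 and 2 against 3 day replicates 1 and 2. In both groups, compressed commercial yeast was brought to an OD600 of 30 in fermentation medium without its sucrose and maltose. It was frozen at -20 °C and thawed at 30 °C for 10 min before RNA was taken. By the labels these 2 groups differ only in the days of storage. The series also holds samples of 0 days, which are unfrozen, and of 14 days, with 2 arrays each. A comparison with 0 days therefore holds freezing itself as well as the time of storage. The submitters describe the duplicates as independent samples. The sources used here give no strain, ploidy or survival after thawing, and all of these cells came from a commercial product rather than a laboratory strain.

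Freezing concentrates solutes, dehydrates the cell and damages membranes and proteins, and thawing adds oxidative stress. Yeast meets such injury with chaperones, trehalose, glycerol and antioxidant enzymes, many of them made from genes that the transcription factors Msn2 and Msn4 switch on. Genes for ribosomal proteins are among the most active in growing cells and are commonly turned down when cells are stressed or short of nutrients.

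Each array gave a linear fluorescence intensity for every probe set, a group of short probes that reads a transcript. Signals below are log2 intensities after quantile normalisation, and a difference is the 7 day mean minus the 3 day mean on that log2 scale, with n = 2 arrays per group. Differences were tested with limma over 5188 genes, and adjusted p-values follow Benjamini and Hochberg over all of them. A gene with an adjusted p under 0.05 is said to have risen or fallen. The number of arrays limits the precision, and the median standard error of a difference was 0.446.

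Between 3 and 7 days of freezing, 39 genes rose (0.752% of those tested) and 23 fell (0.443%), 62 in all (1.20%). Genes that rose included the surface protein gene ANS1, the hypoxic repressor ROX1, the citric acid cycle gene IDH1 and the misfolded-protein gene ROQ1. Genes that fell included the oligopeptide transporter OPT2, lysine synthesis genes, iron transporters, 6 genes of cytosolic ribosomal proteins and RNR1 of deoxynucleotide synthesis. For each of the 62 genes, both 7 day arrays lay on the same side of both 3 day arrays. This held upward for 30.3% and downward for 24.8% of all genes. The 62 were called on the difference between these same arrays, which favours groups that do not overlap, so this is no separate support. The smallest rise was 1.07 and the smallest fall -1.06. At an unadjusted p under 0.05, 613 of the 5188 genes were higher and 443 lower, where 259 in both directions together would be expected by chance. Such counts for the lists below are descriptions, to be read beside these counts over all genes. The median difference over all genes was 0.08.

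The count rested on individual arrays. It was 0 without 7 day replicate 2, 8 without 7 day replicate 1 and 2 without 3 day replicate 2. It was 47 without 3 day replicate 1, of which 5 fell and only 15 were among the 62, and 2 without either 14 day array, while it became 229 and 223 without 0 day replicates 1 and 2. Without normalisation 598 genes rose and 22 fell, with a median of 0.63 over all genes, and with equal array medians 50 rose and 16 fell, of which 40 were among the 62. Medians of gene lists, given below as descriptions, moved too: leaving out 1 array changed 30 of 46 by over 1.5 times, as stated beside each such median described here. Differences below are therefore relative to the bulk of genes on the array.

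**Figure D1:**
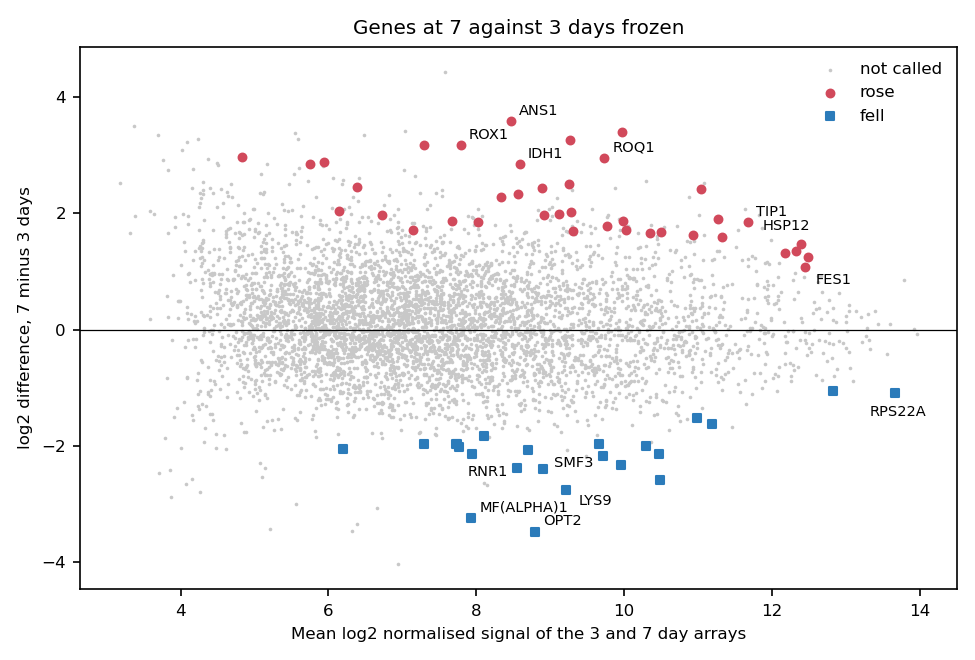
Each point is 1 of 5188 genes, with the mean log2 normalised signal of the 3 and 7 day arrays on the x axis and the log2 difference, 7 minus 3 days, on the y axis. Red circles are the 39 genes that rose and blue squares the 23 that fell, and they lie across the range of signals, with OPT2 and ANS1 at the ends.

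The largest rise was that of ANS1, a putative cell surface protein. Its log2 signal was 6.43 and 6.91 in the 3 day arrays and 9.93 and 10.58 in the 7 day arrays. The 4 values left a wide gap between the groups, and the difference was 3.59 ± 0.42 (SE), a 12.0-fold rise with a limma adjusted p of 0.0121. At 0 days the signal was 8.53 and 7.70, above both 3 day arrays and below both 7 day arrays.

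ROX1 encodes the repressor that keeps hypoxic genes off when oxygen is present. It went from 6.40 and 6.01 at 3 days to 9.65 and 9.09 at 7 days, a difference of 3.17 ± 0.45 (adjusted p = 0.0287). A list of 17 measured genes held ROX1 itself beside cold- and anoxia-induced genes, several of which ROX1 is known to repress. In this list ROX1 and the mannoprotein gene TIP1 rose and 0 fell in limma (5 higher and 0 lower at an unadjusted p under 0.05). TIP1, a cold-shock-induced wall mannoprotein, had signals of 10.82 and 10.67 at 3 days and 12.75 and 12.44 at 7 days, and its difference was 1.85 ± 0.28 (adjusted p = 0.0289). The other members ran from -0.77 for the heme synthesis gene HEM13 to 1.96 for the mannoprotein DAN1, and the median of the list was 0.61.

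Other genes of the cell surface rose too. SED1, a major structural protein of the wall, rose by 1.91 from signals of 10.59 and 10.04 to 11.97 and 12.46 (adjusted p = 0.0452). CCW14, an inner wall glycoprotein, rose by 1.24, from 12.02 and 11.71 to 13.09 and 13.12. These were the 2 called genes among 34 of the cell wall and cell integrity list, whose median of 0.19 was 0.05 without 7 day replicate 2 and 0.35 without 7 day replicate 1. At 0 days the signals of SED1 and CCW14 were 11.77 and 10.91 and 12.76 and 12.11, so the 0 day arrays lay between the 3 and 7 day arrays for both genes. HRK1, a kinase that activates the plasma membrane proton pump, rose by 1.72.

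Of genes that deal with misfolded protein, ROQ1, RPN4, CUR1, FES1 and MDJ1 rose. ROQ1 makes a peptide that turns the ubiquitin ligase Ubr1 toward misfolded proteins, and it had signals of 8.28 and 8.22 at 3 days and 11.83 and 10.58 at 7 days. The groups did not overlap, although the 7 day arrays were more than 1 log2 unit apart, and the difference was 2.95 ± 0.50 (adjusted p = 0.0350). RPN4, the activator of proteasome genes, rose from 9.61 and 9.71 to 11.24 and 11.45, a difference of 1.68 ± 0.33 (adjusted p = 0.0452). CUR1, which sorts misfolded proteins to deposits, rose by 1.96 from 7.95 and 7.90 to 10.36 and 9.42. FES1, the nucleotide exchange factor that releases misfolded clients from Hsp70, rose by 1.07 from 11.85 and 11.98 to 13.12 and 12.85, and its call ended in 12 of 22 alternatives.

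CUR1 and FES1 were the 2 genes that rose among 27 cytosolic heat shock chaperones, and 0 fell in limma (12 higher and 0 lower at an unadjusted p under 0.05). The median of the 27 was 0.76, against 0.08 over all genes. It depended on the scaling: it was 0.43 with equal array medians, against 0.12 over all genes, and 0.93 without normalisation, against 0.63. In 19 of the 27 (70.4%, against 30.3% of all genes) both 7 day arrays lay above both 3 day arrays. The main chaperones were not called. HSP104, the disaggregase, differed by 0.48 ± 0.34 (adjusted p = 0.457), and the Hsp70 gene SSA4 by 0.72, with 11.46 in 3 day replicate 2 and 11.28 in 7 day replicate 2, so its groups overlapped. HSP82, a form of Hsp90 read by a probe set that can also bind the near-identical HSC82, stood at 0.46, and the small heat shock protein HSP26 at 1.35. Members with larger differences that missed the threshold were HSP42, a small heat shock protein (1.62, adjusted p = 0.0532), and the Hsp110 gene SSE2 (1.96, adjusted p = 0.0550).

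RPN4 was the only called gene of the 40 on the proteasome list, which had a median of 0.35 with 4 members higher and 2 lower at an unadjusted p under 0.05. Its other members ran up to 1.43 for the core subunit PRE4. The lowest, the core subunit PUP2 at -3.46 ± 1.45, had 7 day arrays at 7.85 and at the floor of 1.33. FUB1, a proteasome-binding protein, stood at 0.57 with signals of 6.56 and 7.23 against 7.52 and 7.40. In the ubiquitin conjugation list of 26 genes limma called 0 (4 higher and 0 lower at an unadjusted p under 0.05), and its median was 0.44, or 0.19 without 3 day replicate 2, with the conjugating enzyme UBC4 at 1.20 and the polyubiquitin gene UBI4 at 1.11. Within mitochondria, MDJ1, the Hsp40 partner of mitochondrial Hsp70, rose by 1.98 from 8.53 and 7.72 to 10.37 and 9.84 (adjusted p = 0.0476). It was the only called gene of 14 mitochondrial chaperones and proteases, whose median was 0.77. MGR1, an adaptor of a mitochondrial inner membrane protease, rose by 1.71. In the endoplasmic reticulum folding list of 14 genes limma called 0 (2 higher and 3 lower at an unadjusted p under 0.05), and the median of -0.01 was 0.42 without normalisation and -0.11 without 3 day replicate 2.

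The list of general stress genes, of the kind Msn2 and Msn4 activate, had a median of 1.34. Of 47 members, HSP12 and ROQ1 rose and 0 fell in limma, with 28 higher and 0 lower at an unadjusted p under 0.05. Both 7 day arrays lay above both 3 day arrays in 39 of the 47 (83.0%, against 30.3% of all genes). HSP12, a small membrane-protecting stress protein, rose by 1.35 ± 0.26 (adjusted p = 0.0452), from 11.95 and 11.36 to 12.98 and 13.03. The median of the list stood at 0.20 and -0.20 in the 3 day arrays and at 1.66 and 1.06 in the 7 day arrays, relative to the 3 day mean. In 0 day replicate 1 it was 0.98, close to 7 day replicate 2, while in 0 day replicate 2 it was -0.25.

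Trehalose and glycogen genes, which make the reserve sugars that also shield membranes and proteins, had a median of 1.11 over 21 members. Limma called 0 of them (7 higher and 0 lower at an unadjusted p under 0.05). Relative to the 3 day mean, the list median stood at 1.67 and 0.87 in the 7 day arrays. In 0 day replicate 1 it was 0.80, close to 7 day replicate 2, and in 0 day replicate 2 it was -0.06. The trehalose synthase TPS1 had signals of 6.17 and 6.27 at 3 days and 8.54 and 7.57 at 7 days, a difference of 1.83 ± 0.59 (adjusted p = 0.132). Its regulatory subunit TSL1 stood at 1.67 ± 0.81 (adjusted p = 0.281), and the glycogen synthase GSY1 at 2.03 ± 0.44 (adjusted p = 0.0532). The arrays of each of these 3 genes did not overlap, and none of the 3 was called. The phosphoglucomutase PGM2 had a difference of 3.27 that carried an SE of 1.37, because 3 day replicate 2 read 1.63 against 6.28 in replicate 1.

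In the glycerol list of 14 genes, STL1 was the only one called. STL1, the symporter that brings glycerol into the cell together with protons, had signals of 3.93 and 4.74 at 3 days and 6.63 and 7.71 at 7 days. The difference of 2.84 ± 0.58 (adjusted p = 0.0452) was a 7.17-fold rise from a low signal. GPD1, the rate-limiting enzyme of glycerol synthesis, stood at 1.95 ± 0.61 (adjusted p = 0.127), with 8.06 and 7.87 against 9.56 and 10.28, and its relative GPD2 at -1.29. Among 4 measured aquaporins, water and glycerol channels that bear on freeze tolerance, limma called 0 (1 higher and 0 lower at an unadjusted p under 0.05). AQY3 stood at 1.90, AQY1 at 1.35 and the glycerol channel FPS1 at -0.18, a value that was above 0 without normalisation, with equal array medians and without 7 day replicate 2.

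Of 38 oxidative stress genes limma called 0, with 13 higher and 0 lower at an unadjusted p under 0.05 and a median of 0.75. The mitochondrial superoxide dismutase SOD2 stood at 1.93 ± 0.52 (adjusted p = 0.0869), from 5.56 and 5.58 to 8.01 and 6.99. The peroxiredoxin AHP1 stood at 1.65 ± 0.41 (adjusted p = 0.0684) and the catalase CTT1 at 1.13 ± 0.87 (adjusted p = 0.497). Their arrays were apart, and none of these 3 genes passed the threshold. The 22 autophagy and vacuolar protease genes had a median of 0.71, or 0.39 without 3 day replicate 2, with 0 called in limma (7 higher and 0 lower at an unadjusted p under 0.05), and ATG7, the enzyme that activates the ubiquitin-like proteins of autophagy, stood at 2.33 from a low signal.

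**Figure D2:**
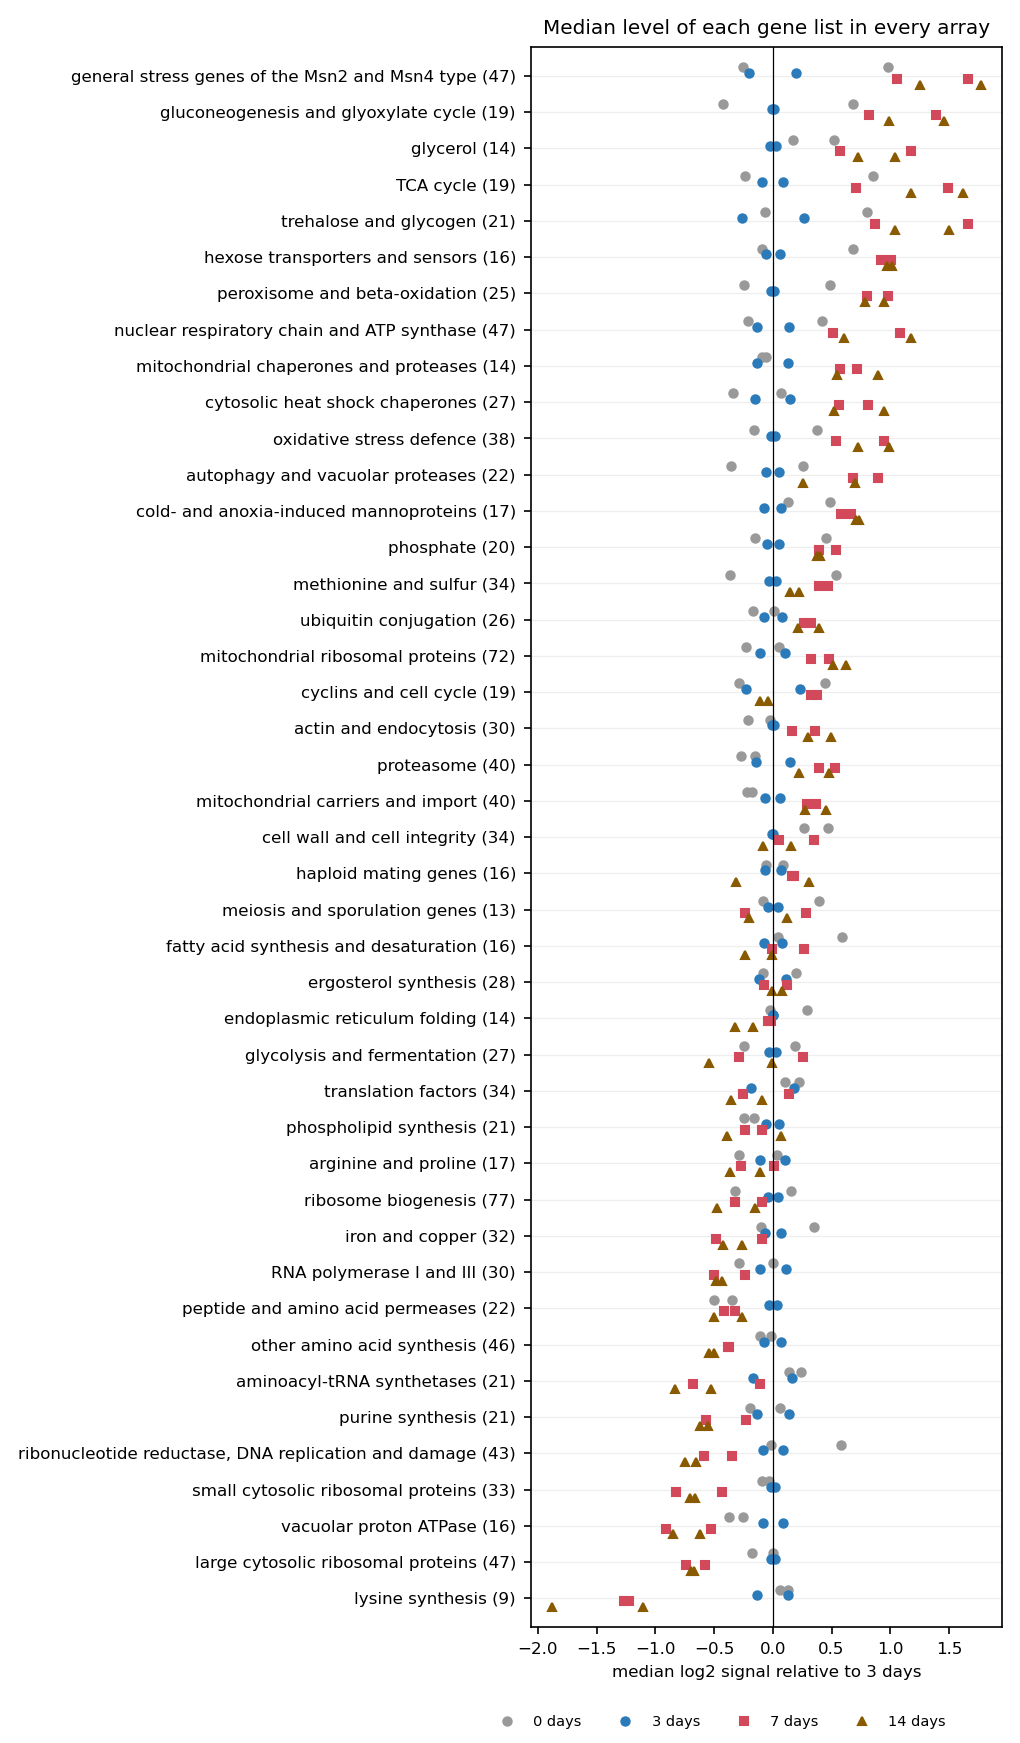
Each row is a gene list with at least 9 measured members (number in brackets), and each symbol is the median over its members in 1 array of the log2 signal relative to the 3 day mean. General stress, carbon reserve and respiratory lists lie to the right at 7 days, and lysine synthesis and ribosomal protein lists to the left, with the 14 day arrays on the same side. In 0 day replicate 1 the general stress list, at 0.98, and the trehalose and glycogen list, at 0.80, also lie to the right. In 0 day replicate 2 they stand at -0.25 and -0.06. The general stress list stands at 1.66 and 1.06 at 7 days and the lysine list at -1.26 and -1.22.

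Among genes of respiration and sugar response, IDH1, HAP4 and MIG2 rose. IDH1, a subunit of the isocitrate dehydrogenase of the citric acid cycle, had signals of 7.32 and 7.01 at 3 days and 10.13 and 9.89 at 7 days. Replicates were close in both groups, and the difference was 2.85 ± 0.40 (adjusted p = 0.0287). HAP4, the activating subunit of the regulator of respiratory genes, rose from 6.77 and 6.71 to 8.37 and 8.83, by 1.86 ± 0.37 (adjusted p = 0.0452). MIG2, a repressor of genes shut off by glucose, rose from 5.68 and 5.79 to 7.57 and 7.84, by 1.97 (adjusted p = 0.0452).

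IDH1 was the only gene called of 19 in the citric acid cycle list, with 10 members higher and 0 lower at an unadjusted p under 0.05. The median of 1.12 was 0.71 without 7 day replicate 1, and 0 day replicate 1, at 0.85 above the 3 day mean, lay above 7 day replicate 2, at 0.71. Its partner subunit IDH2 stood at 2.52 ± 0.65 (adjusted p = 0.0746), the aconitase ACO1 at 1.97 and the fumarase FUM1 at 1.63, both with an adjusted p of 0.0532. The lowest member was the pyruvate carboxylase PYC1 at -0.16, which was above 0 without normalisation, without 3 day replicate 2 and without 7 day replicate 2. HAP4 was the only gene called of 47 in the respiratory chain and ATP synthase list (median 0.79, or 0.51 without 7 day replicate 1; 17 higher and 0 lower at an unadjusted p under 0.05). The members ran from -0.49 for the cytochrome oxidase subunit COX9 to 2.30 for the external NADH dehydrogenase NDE2.

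Of 19 gluconeogenesis and glyoxylate cycle genes limma called 0, and the median was 1.22. In 14 of them (73.7%, against 30.3% of all genes) both 7 day arrays lay above both 3 day arrays. The isocitrate lyase ICL1 stood at 1.36 ± 0.35 (adjusted p = 0.0759), with 10.71 and 10.46 against 12.08 and 11.80. At an unadjusted p under 0.05, 6 members were higher and 1 lower, the lower one being DAL7, a malate synthase used in allantoin breakdown, at -1.39. The 25 peroxisome and beta-oxidation genes had a median of 0.87 with 0 called (5 higher and 0 lower at an unadjusted p under 0.05), and the 16 hexose transporters and sensors a median of 1.0 with MIG2 called. HXT5, the hexose transporter of slowly growing cells, stood at 1.78 with signals of 9.66 and 9.98 against 11.63 and 11.57.

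The 27 glycolysis and fermentation genes had 0 called in limma, and 2 were higher and 5 lower at an unadjusted p under 0.05. Their median of -0.03 was -0.68 with equal array medians, -0.18 without normalisation, -0.29 without 7 day replicate 1 and 0.26 without 7 day replicate 2. The most extreme was the enolase ENO2 at -2.18 ± 0.74 (adjusted p = 0.146). Its 7 day arrays read 9.86 and 6.93, so most of that value came from replicate 2, and its probe set can also bind ENO1. Among 6 sucrose and maltose genes, whose sugars the medium lacked, limma called 0 (1 higher and 0 lower at an unadjusted p under 0.05), with the isomaltase IMA1 at 1.38.

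Further mitochondrial genes rose outside those lists. RPM2, the protein subunit of mitochondrial RNase P, rose by 2.88 ± 0.55 (adjusted p = 0.0452), from 5.38 and 3.63 to 7.47 and 7.30, so its 3 day arrays were far apart. ISA1, which assembles iron-sulfur clusters in mitochondria, rose by 2.43 from 7.38 and 7.98 to 9.88 and 10.33. PET20, needed for respiratory growth, rose by 2.50, and UPS2, which handles phospholipids between the mitochondrial membranes, by 2.03. MIC10, a protein that shapes the cristae, rose by 1.60 on its brightest probe set and stood at 0.94 on the other. DRE2, which acts in the assembly of cytosolic iron-sulfur clusters, rose by 1.70.

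Of 72 mitochondrial ribosomal protein genes limma called 0. At an unadjusted p under 0.05, 10 were higher and 2 lower, beside 613 higher and 443 lower of all 5188 genes. Their median was 0.44 (0.27 without 3 day replicate 2). In 31 (43.1%, against 30.3% of all genes) both 7 day arrays lay above both 3 day arrays. RSM24 stood at 1.59 (adjusted p = 0.0639). In the list of 40 mitochondrial carriers and import genes MIC10 was called and the median was 0.24, or 0.12 without 3 day replicate 1 and 0.37 without 7 day replicate 2. The dicarboxylate carrier DIC1 stood at 1.25 ± 0.44 (adjusted p = 0.156) and the oxodicarboxylate carrier ODC2 at -1.70 (adjusted p = 0.0532). YHM2, a carrier that exports citrate from mitochondria and belongs to no list here, fell by 2.17 on the log2 scale, from a mean of 10.80 to 8.84 and 8.43 (adjusted p = 0.0289).

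**Figure D3:**
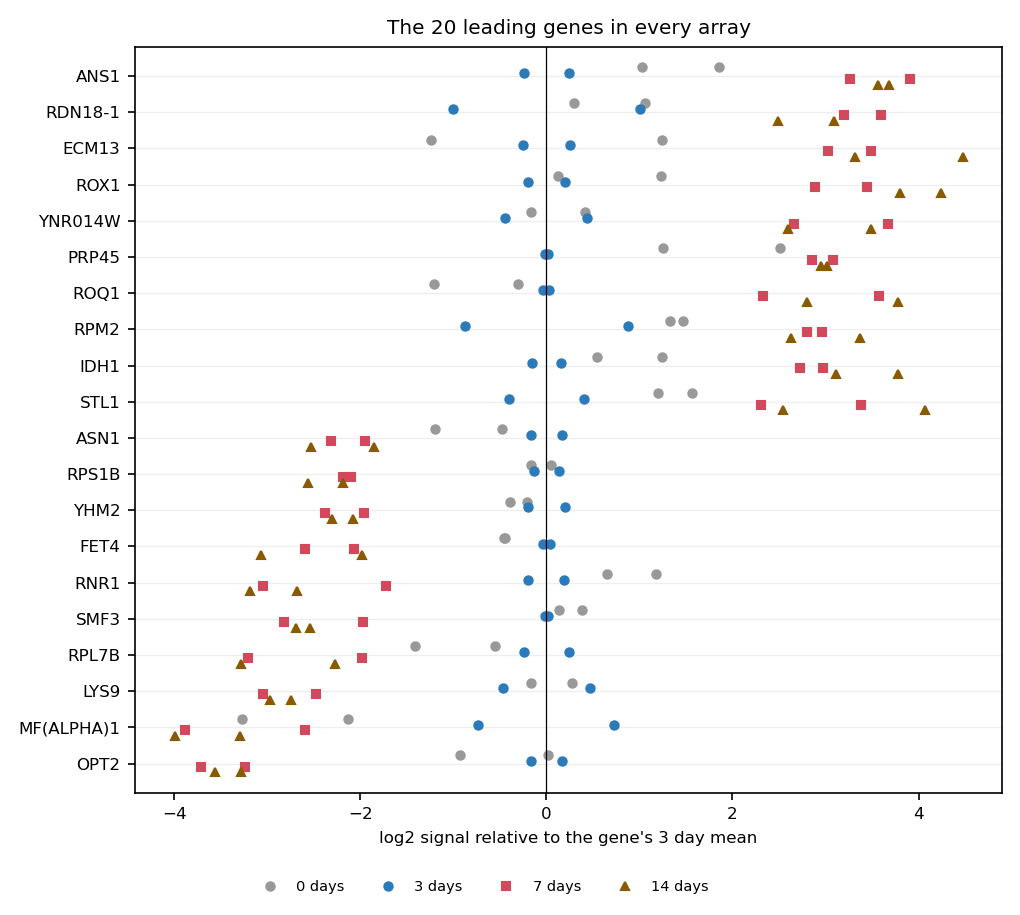
The 10 genes with the largest rises and the 10 with the largest falls are shown in all 8 arrays as log2 signal relative to each gene's 3 day mean. For every gene the 7 day squares lie away from the 3 day circles and on the side of the 14 day triangles, while the 0 day circles of ANS1, PRP45 and MF(ALPHA)1, among others, lie away from the 3 day ones.

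PRP45, a factor of the spliceosome, rose by 2.96 ± 0.58 (adjusted p = 0.0452) from a low signal, 3.34 and 3.36 at 3 days against 6.20 and 6.43 at 7 days. EAP1, a repressor of translation that binds the cap-binding protein, rose by 2.46 from 4.96 and 5.35 to 7.47 and 7.76. NAB2, a poly(A)-binding protein of messenger RNA export, rose by 1.78, and STE7, a kinase of the mating and filamentation pathways, by 2.04. PPT1, a phosphatase that acts on Hsp90, rose by 1.85 on its brightest probe set, but its other probe set stood at -0.06, so the probe sets disagree.

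Genes whose products are poorly known were also among the largest rises. ECM13 had signals of 7.39 and 7.89 at 3 days and 10.67 and 11.13 at 7 days, a difference of 3.26 ± 0.68 just inside the threshold (adjusted p = 0.05 after rounding). YNR014W went from 6.15 and 5.26 to 9.37 and 8.37, a difference of 3.17 ± 0.50 (adjusted p = 0.0289). YDR222W rose by 2.28 and YBR085C-A by 1.86. The remaining rises were those of the threonine aldolase GLY1 (1.63), the serine hydrolase FSH1 (1.31) and PER33, a protein of the endoplasmic reticulum and nuclear envelope (1.65).

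Among RNAs that are not messengers, 4 rose. RDN18-1, the 18S ribosomal RNA, rose by 3.40 ± 0.57 (adjusted p = 0.0350), from 9.28 and 7.27 at 3 days to 11.87 and 11.47 at 7 days. Its 3 day arrays were far apart. Control probe sets for 18S, read on the deposited scale, shifted less. They stood at 7.37 and 9.38 times the array median at 3 days and at 15.3 and 20.5 times at 7 days. RDN25-1, the 25S ribosomal RNA, rose by 1.48 on its brightest probe set and stood at 1.34 on the other. SNR14, the U4 spliceosomal RNA, rose by 2.34, from 7.14 and 7.64 to 9.48 and 9.98. SUP19, a serine transfer RNA whose probe set can bind related transcripts, rose by 2.42.

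These RNAs lack the long poly(A) tails that the purification step selects. Of 90 transfer RNA genes, SUP19 was called and the median was 0.69. Both 7 day arrays lay above both 3 day arrays in 45 and below in 1, against 30.3% and 24.8% of all genes. The 53 small nucleolar RNAs had a median of 0.33. Both 7 day arrays lay above in 23 and below in 10, beside the same 30.3% and 24.8% of all genes. The control probe sets for ribosomal RNA, read on the deposited scale, stood at 7.73 and 11.3 times the array median at 3 days and at 17.0 and 22.7 times at 7 days. At 0 days they stood at 8.85 and 6.76 times and at 14 days at 21.6 and 15.7 times. The part of this shift in the other results was not tested beyond one measurement, made after the data were seen: without the non-coding probe sets 84 genes were called, of which 55 rose and 29 fell, 58 of them among the 62.

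**Figure D4:**
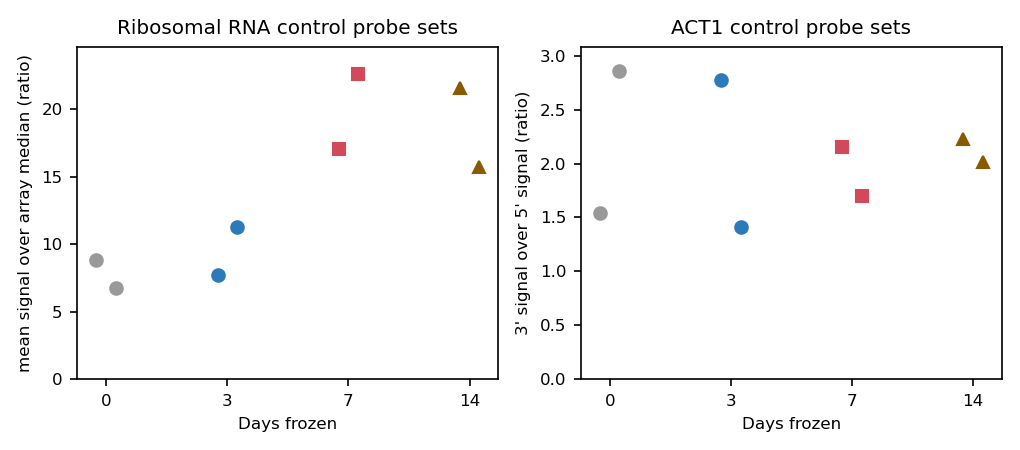
Points are single arrays, with days frozen on the x axis. On the left, the y axis is the mean signal of the ribosomal RNA control probe sets over the array median, and the 7 and 14 day arrays, at 15.7 to 22.7, lie above all 0 and 3 day arrays. On the right, the y axis is the signal at the 3' end of ACT1 over that at its 5' end, which overlaps between the times, from 1.41 to 2.78 at 3 days and from 1.70 to 2.16 at 7 days.

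Of 33 small-subunit and 47 large-subunit ribosomal protein genes, 6 fell. In the small subunit, 4 fell and 0 rose in limma (0 higher and 19 lower at an unadjusted p under 0.05). In 27 of the 33 (81.8%, against 24.8% of all genes), both 7 day arrays lay below both 3 day arrays. The median was -0.65, or -0.43 without 7 day replicate 1. In the large subunit, 2 fell and 0 rose (0 higher and 29 lower at an unadjusted p under 0.05). The 7 day arrays lay below in 35 of the 47 (74.5%), and the median was -0.75. The list medians in single arrays were -0.82 and -0.43 for the small subunit and -0.74 and -0.57 for the large one at 7 days, relative to the 3 day mean.

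RPS22A, a small-subunit protein, had signals of 14.21 in both 3 day arrays and 12.97 and 13.26 at 7 days, and fell by 1.10 on the log2 scale with an SE of 0.18 (adjusted p = 0.0350). Its 3 day arrays lie at the top of the scale, where quantile normalisation gives the same value to the brightest probe set of each array. RPS1B fell by 2.14 on the log2 scale with an SE of 0.31, from 11.40 and 11.67 to 9.35 and 9.44, and its near-identical copy RPS1A fell by 1.06, from 13.19 and 13.51 to 12.43 and 12.15. RPL7B fell by 2.59, from 11.53 and 12.03 to 8.57 and 9.80, RPL13B by 1.62 and RPS10B by 1.52. The probe sets of RPS1A, RPS1B, RPL7B and RPS10B can bind related transcripts, so their values may mix the paralogs. A dimmer probe set of RPL7B stood at -3.82 and one of RPS10B at -3.44, the latter with 7 day replicate 1 at the floor of 1.33. The call of RPS10B ended in 12 of 22 alternatives.

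A few ribosomal protein genes stood above 0, among them RPS27B at 0.32, which was below 0 with equal array medians, and RPL37B at 0.19, which was below 0 without normalisation, with equal array medians and without 7 day replicate 1. TMA20, a protein that associates with ribosomes, fell by 1.97 on the log2 scale, from 10.64 and 10.67 to 8.49 and 8.87 (adjusted p = 0.0371).

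Lists of the machinery that builds and feeds ribosomes had medians closer to 0. The 77 ribosome biogenesis genes had a median of -0.14, the 30 genes of RNA polymerases I and III one of -0.35, the 21 aminoacyl-tRNA synthetases one of -0.41 and the 34 translation factors one of -0.09. Without normalisation these medians were 0.44, 0.18, 0.04 and 0.46, each above 0 but below the 0.63 of all genes. Leaving out 1 array, 3 of these medians moved by over 1.5 times: ribosome biogenesis was -0.32 without 7 day replicate 2, and the synthetases were -0.71 without 3 day replicate 1 and -0.11 without 7 day replicate 1. The translation factors were -0.25 without 7 day replicate 2 and 0.14 without 7 day replicate 1. Limma called 0 genes in each of the 4 lists. At an unadjusted p under 0.05, 3, 1, 0 and 4 of their members were higher and 10, 9, 2 and 1 lower. RPA190, the largest subunit of RNA polymerase I, stood at -1.46 ± 0.34 (adjusted p = 0.0562) on its brightest probe set, and its dimmer probe sets ran from -1.69 to 0.53.

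The lysine synthesis list had a median of -1.22. Of its 9 genes, LYS9 and LYS2 fell and 0 rose in limma (0 higher and 8 lower at an unadjusted p under 0.05). LYS9, the saccharopine dehydrogenase of the late pathway, had signals of 10.12 and 11.06 at 3 days and 7.55 and 8.11 at 7 days. The groups were well apart, and the difference was -2.76 ± 0.42 (adjusted p = 0.0289). LYS2, the aminoadipate reductase, fell by 2.06 on the log2 scale, from 9.52 and 9.95 to 7.46 and 7.87 (adjusted p = 0.0426). LYS12, the homoisocitrate dehydrogenase, stood at -1.74 ± 0.40 (adjusted p = 0.0550), and the remaining members ran from -1.22 to -0.24, the last being the homocitrate synthase LYS20, the only one whose arrays overlapped.

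Other amino acid pathways had medians closer to 0. Of 46 other amino acid synthesis genes, the asparagine synthetase ASN1 fell, by 2.13 on the log2 scale from 9.18 and 8.85 to 7.06 and 6.70 (adjusted p = 0.0452), and 0 rose in limma (0 higher and 10 lower at an unadjusted p under 0.05). That list had a median of -0.39, which was 0.09 without normalisation. In the methionine and sulfur list of 34 genes limma called 0 (6 higher and 2 lower at an unadjusted p under 0.05) and the median was 0.46, or 0.30 without 3 day replicate 2, with the methionine permease MUP3 at 1.44. The 17 arginine and proline genes had a median of -0.13, or 0.55 without normalisation, -0.27 without 3 day replicate 1 and 0.01 without 7 day replicate 1, and limma called 0 (4 higher and 1 lower at an unadjusted p under 0.05). Within that list the proline permease PUT4 stood at 1.57 and the arginine synthesis gene ARG2 at -1.01. Of 21 purine synthesis genes limma called 0 (0 higher and 5 lower at an unadjusted p under 0.05), with a median of -0.42, or -0.23 without 7 day replicate 1.

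Uptake of nitrogen sources included the largest fall. OPT2, a transporter of oligopeptides and glutathione, had signals of 10.36 and 10.70 at 3 days and 6.82 and 7.29 at 7 days. Both groups were tight, and the difference was -3.47 ± 0.42, an 11.1-fold fall with an adjusted p of 0.0121. MEP2, the high-affinity ammonium permease, fell by 2.0 on the log2 scale, from 11.24 and 11.35 to 9.50 and 9.09 (adjusted p = 0.0350). They were the 2 called genes among 22 peptide and amino acid permeases, whose median was -0.38, or 0.24 without normalisation and -0.21 without 3 day replicate 2. VBA4, only proposed to be a permease of basic amino acids, and VSB1, which acts in their vacuolar transport, fell by 1.96 and 2.02 on the log2 scale. The 16 genes of the vacuolar proton ATPase, which powers that transport, had a median of -0.67 with 0 called in limma, and 0 were higher and 7 lower at an unadjusted p under 0.05. Its subunit VMA6 stood at -1.26 (adjusted p = 0.0965).

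Of 32 iron and copper genes, 3 fell and 0 rose in limma, with 5 higher and 9 lower at an unadjusted p under 0.05. SMF3, which carries iron out of the vacuole, had signals of 10.11 and 10.09 at 3 days and 7.28 and 8.13 at 7 days, a difference of -2.39 ± 0.38 (adjusted p = 0.0289). FET4, the low-affinity iron transporter, went from 11.09 and 11.16 to 8.54 and 9.06 (-2.33 ± 0.41, adjusted p = 0.0368), and the ferric reductase FRE4 from 8.01 and 8.55 to 6.03 and 6.60 (-1.97). The list's median was -0.31, or 0.34 without normalisation, -0.48 without 7 day replicate 2 and -0.09 without 7 day replicate 1, and its members spread widely. The iron-sulfur scaffold ISU1 stood at 1.80 ± 0.39 (adjusted p = 0.0532), from 9.33 and 9.58 to 11.28 and 11.23.

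RNR1, the large subunit of ribonucleotide reductase that supplies deoxynucleotides, had signals of 9.55 and 9.94 at 3 days and 6.70 and 8.03 at 7 days. It fell by 2.38 on the log2 scale with an SE of 0.47 (adjusted p = 0.0452). Of 43 genes of ribonucleotide reductase, DNA replication and DNA damage it was the only one called, and 1 was higher and 10 lower at an unadjusted p under 0.05. In 23 of the 43 (53.5%, against 24.8% of all genes) both 7 day arrays lay below both 3 day arrays. The median was -0.57, or -0.35 without 7 day replicate 1. RNR3, the alternative large subunit, has a probe set that may cross-hybridise and stood at -2.67 ± 0.58 (adjusted p = 0.0532). SML1, the protein inhibitor of the reductase, stood at 1.27 ± 0.30 (adjusted p = 0.0575), from 11.32 and 10.87 to 12.45 and 12.27. The cyclins and cell cycle list of 19 genes had 0 called in limma (2 higher and 0 lower at an unadjusted p under 0.05), and its median of 0.43 was 0.03 without 3 day replicate 2.

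MF(ALPHA)1, the gene of the alpha-factor mating pheromone, had signals of 8.81 and 10.28 at 3 days and 5.66 and 6.95 at 7 days. It fell by 3.24 on the log2 scale with an SE of 0.61 (adjusted p = 0.0452), but at 0 days it read 6.28 and 7.41, overlapping the 7 day arrays. It was the only called gene of 16 haploid mating genes, whose median of 0.17 was -0.03 without 3 day replicate 2 and 0.27 without 3 day replicate 1. The receptors STE2 and STE3 stood at 0.26 and -0.74, and MFA1, of the a-factor, stood at 1.57 on its brightest probe set and at 0.58 on the other. The 13 meiosis and sporulation genes had 0 called in limma (0 higher and 0 lower at an unadjusted p under 0.05). In a bulk culture, fewer cells with a transcript and less of it per cell cannot be told apart.

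The remaining falls were LCB3, which removes phosphate from long-chain bases of sphingolipids (-1.96), the motor protein dynein DYN1 (-2.05) and PMU1, a putative phosphomutase (-1.83).

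Membrane lipid lists had medians near 0. The 28 ergosterol synthesis genes had a median of 0.05 (-0.08 without 7 day replicate 1 and 0.12 without 7 day replicate 2) and ran from -0.85 to 0.84, with 0 called in limma and 0 at an unadjusted p under 0.05 in either direction. ERG11, the target of azole drugs, stood at -0.06 ± 0.34 (adjusted p = 0.939), with 11.77 and 12.07 at 3 days against 11.94 and 11.78 at 7 days. The 21 phospholipid synthesis genes had a median of -0.12 (0.63 without normalisation, -0.24 without 7 day replicate 2 and -0.05 without 3 day replicate 2) and the 16 fatty acid genes one of 0.08 (-0.26 without 3 day replicate 1 and 0.27 without 7 day replicate 2), with 0 called by limma in both (1 and 1 higher, and 1 and 2 lower, at an unadjusted p under 0.05). OLE1, the desaturase that keeps membranes fluid, stood at 1.75 ± 0.47 (adjusted p = 0.0880), from 9.35 and 9.03 to 11.36 and 10.52. PAH1, the phosphatidate phosphatase, stood at 2.86 ± 0.64 (adjusted p = 0.0532) from a low signal, 2.78 and 3.35 at 3 days.

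The medians of the remaining lists were 0.50 for 20 phosphate genes, 0.36 for 30 actin and endocytosis genes and 0.15 for 5 histone genes. The phosphate list was 0.29 without 3 day replicate 1, the actin list 0.17 without 7 day replicate 1, and the histones -0.19 without 7 day replicate 1 and 0.43 without 3 day replicate 2. In these lists limma called 0, and 5, 1 and 0 members were higher and 0 lower at an unadjusted p under 0.05. The phosphate transporter PHO89 stood at 1.0 and the actin regulator LAS17 at 1.54.

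The arrays of 0 and 14 days, none of which are among the 4 compared here, were read for the same genes. All 62 genes differed in the same direction at 14 against 0 days, as did 73.9% of all genes, and so did each of the 20 leading genes. In 59 of the 62, the 14 day arrays did not overlap the 0 day arrays and lay on that side. Over all genes, 28.0% did so upward and 22.9% downward. The spread behind the 62 calls was pooled over all arrays, those of 0 and 14 days included. Close pairs at 0 and 14 days thus helped a gene to be called and also favour arrays that do not overlap. The 59 are therefore no separate support. Of the 62, 28 were also called at 14 against 0 days, 17 that rose and 11 that fell. These were 45.2% of the 62 and 31.1% of the 90 genes called there (1.73% of those tested). Both sets of calls used the same pooled spread, which favours genes called in both. Across genes the 2 sets of differences correlated at r = 0.607, a description over genes that share one normalisation and are not independent replicates.

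The median difference of the genes that rose was 1.97 at 7 against 3 days and 1.59 at 14 against 0 days, and that of the genes that fell was -2.05 and -1.56. At 14 against 0 days ROX1 stood at 3.35, ROQ1 at 4.05, TIP1 at 1.86, IDH1 at 2.56, OPT2 at -2.97 and LYS9 at -2.91. Genes within 1 log2 unit of 0 there were PPT1 (0.33), GLY1 (0.37), NAB2 (0.56), SED1 (0.64), FSH1 (0.70), CCW14 (0.72), LCB3 (-0.51), RPS1A (-0.72), PMU1 (-0.93) and MF(ALPHA)1 (-0.94). The 3 genes whose 14 and 0 day arrays overlapped were PET20, SED1 and PPT1. A test of the difference between the 2 comparisons, added after the data were seen, called 0 genes in limma. There were 146 at an unadjusted p under 0.05, where 259 would be expected by chance, and 8 of the 62 were among the 146. The largest of the 8 was that of MF(ALPHA)1, at -2.29 ± 0.86 with an adjusted p of 0.9996.

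**Figure D5:**
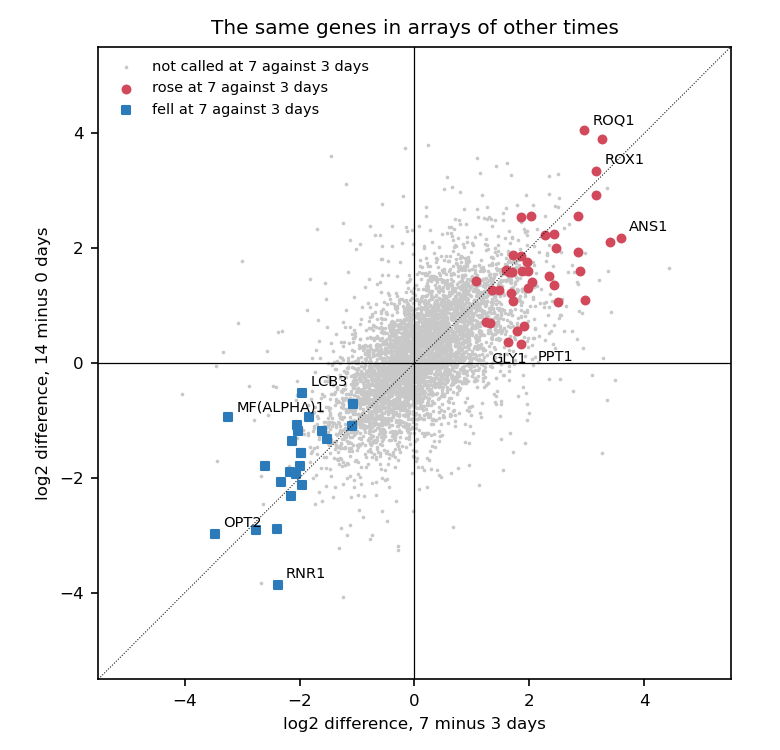
Each point is a gene, with the log2 difference of 7 minus 3 days on the x axis and that of 14 minus 0 days, from other arrays, on the y axis. The dotted line marks equal differences. All 39 genes that rose (red circles) lie above 0 on the y axis and all 23 that fell (blue squares) below it.

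The step from 3 to 7 days was set against the steps on either side. Limma called 0 genes at 3 against 0 days and 0 at 14 against 7 days. At an unadjusted p under 0.05 there were 364 and 48, where 259 would be expected by chance in each comparison. These comparisons share arrays with the one at 7 against 3 days, so their values only stand side by side. ROX1 differed by -0.68, 3.17 and 0.86 over the steps from 0 to 3, 3 to 7 and 7 to 14 days. For OPT2 the values were 0.45, -3.47 and 0.05, for LYS9 -0.05, -2.76 and -0.09, and for ANS1 -1.44, 3.59 and 0.04. MF(ALPHA)1 had values of 2.70, -3.24 and -0.41, and HAP4 of 0.01, 1.86 and 0.68. For each of these 6 genes the last value was smaller in size than the middle one. All 6 were called at 7 against 3 days, which favours a large middle value, so this is no separate support.

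The difference between steps was tested directly. Limma called 0% of 5188 genes for the step from 3 to 7 days minus the next one, so no gene was shown to differ between them. At an unadjusted p under 0.05 there were 242, where 259 would be expected by chance, and the smallest adjusted p in limma was 0.932. Limma also called 0% for the step from 3 to 7 days minus the one before (648 at an unadjusted p under 0.05, smallest adjusted p = 0.128). The first count became 6 without 7 day replicate 1. The second became 22 without 3 day replicate 1, 2 without 3 day replicate 2 and 4 without 7 day replicate 1. The median SE of such a difference was 0.772.

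For 39 of the 39 genes that rose, both 7 day arrays lay above both 0 day arrays as well, and for 22 of the 23 that fell they lay below, MF(ALPHA)1 being the exception. Over all genes 29.8% lay above and 20.5% below, and since the same 7 day arrays enter both readings this is no separate support.

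Signal levels of whole arrays differed between the groups. The median deposited intensity was 56.9 and 69.5 at 3 days and 110.3 and 72.3 at 7 days. Across genes the 3 day replicates correlated at r = 0.912 and the 7 day replicates at r = 0.938, while 3 day replicate 1 correlated with 0 day replicate 2 at r = 0.935 and 7 day replicate 1 with 14 day replicate 1 at r = 0.965. The first principal component, with 39.6% of the variance, placed the 3 day arrays at -27.1 and -37.7 and the 7 day arrays at 31.3 and 18.5. Probe sets without a single annotated gene were fitted apart, and 1.99% of them were called. The part of array brightness in the results was not tested beyond the scalings given above.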

How the data were processed

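Linear probe set intensities of 8 Affymetrix yeast arrays were used as deposited. The summarisation software and scaling were not given in the sources used here. Of 9335 probe sets, 60 controls were removed. Per the platform annotation 6504 of the rest had 1 gene, 328 several and 2443 none; RefSeq matching changed 0 symbols. Arrays were quantile normalised, and values under the pooled 5th percentile (2.52, or 1.33 on the log2 scale) were set to that value before log2. Probe sets with a mean under the 25th percentile (4.16) were left out, and each gene was read by its brightest probe set (244 genes had several). Limma 3.58.1 in R 4.3.3 fitted 1 coefficient per freezing time to all 8 arrays (4 residual and 6.89 prior degrees of freedom, intensity trend), with two-sided tests and Benjamini-Hochberg adjustment; the procedure was tested on simulated data.

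The members, the 46 gene lists and the naming rule were chosen with earlier results of these data known, and lists are described without a test of their own. The rule names the 10 largest rises and falls among called genes with arrays apart, each list's member with the smallest p each way, and fixed genes (CTT1, DIC1, ERG11, FUB1, GPD1, HAP4, HSP12, HSP26, HSP82, HSP104, LYS9, OLE1, OPT2, RNR1, ROQ1, RPN4, SMF3, SOD2, SSA4, TPS1, TSL1, UBI4). Other called genes, and uncalled ones such as PGM2, IDH2, HXT5 or HSP42, were named after their values were seen.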

Additional observations from a re-analysis of the deposited data

Results flagged for a closer look

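The ribosomal RNA control probe sets, which no gene comparison used, stood above every 0 day array at 7 days, at 17.0 times the array median in replicate 1 and 22.7 times in replicate 2, against 8.85 and 6.76 times at 0 days. On the log2 scale the 7 day arrays exceeded the 3 day arrays by 1.07.

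Probe sets that the annotation gives no gene or several genes were fitted separately, after the data were seen. Of 1307 tested, 12 rose and 14 fell at 7 against 3 days (limma, 1.99%), with 237 at an unadjusted p under 0.05. Of those that rose, 10 also had both 7 day arrays above both 0 day arrays, which held for 29.8% of all genes in the main comparison. The share over these 1307 probe sets was not measured. The same 7 day arrays enter both readings, so this is no separate support.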

How the results depend on the processing

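With 2 arrays per time, few results stood clear of single arrays. The 62 called genes kept their sign in each of up to 22 alternatives, but 0 kept their call in all of them, and 3 (FES1, RPS10B and RDN25-1) lost it in more alternatives than they kept it. The count became 620 without normalisation, 105 with only the 3 and 7 day arrays in the fit, 21 without a filter, 150 with a filter at the median, 101 with a floor at the 15th percentile, 0 without the intensity trend (941 at an unadjusted p under 0.05) and 252 with array weights. Leaving out 1 array at a time it ran from 0 to 229. The count was 66 with equal array medians (40 among the 62), 53 with the 3 and 7 day arrays normalised and fitted on their own (38), 61 without a floor (61), 60 with the mean of probe sets (57), 67 with robust moderation (62) and 84 without non-coding probe sets (58). Same-numbered arrays of 3, 7 and 14 days deviated together, at r = 0.178 for 3 and 7, 0.195 for 3 and 14 and 0.292 for 7 and 14 days, but pairs with 0 days stood at -0.088 to 0.0858. As not every pair was over 0.1, the numbers were not taken to pair the samples, although a shared batch of the frozen samples was not tested. With a replicate block the count was 205, including all 62. The count for the 3 to 7 day step minus the previous one was 1 without normalisation, 1 with the replicate block and 0 to 22 leaving out 1 array; for the step minus the next it was 0 to 6 leaving out 1 array. The leading genes kept their sign at 14 against 0 days in every setting (20 of 20, or 19 of 19 with a filter at the median or without non-coding probe sets). Of 84 named genes that were not called, 35 passed the threshold in at least 1 setting. Leaving aside the unnormalised setting, which shifts all genes upward, 7 of the 84 changed sign in at least 1 setting, as did the medians of 10 of the 46 lists. The cause of these changes was not tested.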
